A study of Mus musculus with 5 samples.

Results

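The genes described are 8 activity-induced transcription factors of the mouse brain: Egr1, Egr2, Egr3, Egr4, Nr4a1, Nr4a2, Nr4a3 and Npas4. They were chosen by symbol. All 8 were found in the authors' deposited count table of 10329 genes and in their TPM table of 18527 genes. The data are ribosome profiling libraries, which sequence mRNA fragments shielded by ribosomes (footprints), from hippocampal-cortical slices of wild-type C57BL/6N male mice aged 28 to 35 days. Slices of 400 µm recovered for 3 to 4 h and were then given 20 µM homoharringtonine (HHT) for 0, 5, 10, 30 or 60 min, with 1 library per time and no replicate. HHT is a plant alkaloid that stops newly initiated ribosomes while those already elongating run off the mRNA. Each library came from 10 slices pooled from 2 to 3 mice, and the labels name 0.05% DMSO as the vehicle. No library of vehicle alone at a later time was analysed here, so time on HHT and further time in the bath cannot be told apart, and neither can individual mice.

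Immediate early genes are switched on within minutes of synaptic activity or injury, from promoters that hold sites for CREB and serum response factor, without new protein synthesis. Egr proteins are zinc finger factors that bind GC-rich sites, Nr4a proteins are orphan nuclear receptors that act without a known natural hormone, and Npas4 is a neuronal bHLH-PAS factor induced by calcium entry. In hippocampus and cortex they are known as markers of recently active neurons, and their mRNAs and proteins are short-lived. Preparing a slice is itself known as a stimulus for such genes. In bulk tissue, fewer cells of a type and less RNA or fewer ribosomes per cell cannot be told apart.

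In time order the libraries held 7155147, 2787749, 2022152, 1504748 and 1346175 counts. Levels are given as the authors' deposited signal, which is the count per kilobase of coding sequence (CDS) less 600 nt, divided by 1 factor per library (0.828 to 1). A ratio is that signal over its value at 0 min. Intervals are exact 95% intervals of the counts in single libraries, cover counting error only, and stand in for no replicate. Of 10 neuronal marker genes, 8 were in the count table, with a summed signal of 25048 at 60 min against 103247 at 0 min. The same table held 11 of 12 microglial, 9 of 9 astrocyte, 9 of 10 oligodendrocyte and 7 of 9 endothelial and mural markers, so the slices held footprints of all these cell types.

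Egr1, known in neurons as Zif268 and widely used to map active cells, had the highest footprint signal of the 8 genes at every time. It had 7042, 1364, 936, 1019 and 1032 counts at 0, 5, 10, 30 and 60 min, and a signal of 7028, 1410, 1128, 1154 and 1058. By signal it ranked 215 of 10329 genes at 60 min and 161 at 0 min. Its signal made up 42.3% of the summed signal of the 8 genes at 60 min and 47.7% at 0 min. The gene (transcript NM_007913) lies on chromosome 18, 34861207 to 34864956 in GRCm38, the assembly behind mm10, and its CDS has 1602 nt.

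Egr3, which is needed for muscle spindles to form, came next. It had 1509, 319, 307, 304 and 336 counts and a signal of 2676, 586, 657, 611 and 612 in time order. Most of its loss was thus seen by 5 min, and the 4 later libraries lie within a narrow band. Egr3 (NM_018781, CDS 1164 nt) lies on chromosome 14, 70077317 to 70082613.

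Egr4, which is needed for male germ cells to mature, had 1018, 271, 187, 198 and 222 counts and a signal of 1216, 335, 270, 268 and 273. Its last 3 libraries could not be told apart by counting error. Egr4 (NM_020596, CDS 1437 nt) lies on chromosome 6, 85511121 to 85513589. Egr2, known as Krox20 for its role in hindbrain segmentation and in Schwann cell myelination, had far fewer footprints, with 216, 48, 48, 55 and 37 counts and a signal of 266, 61.2, 71.3, 76.7 and 46.8. By signal Egr2 stood near the middle of all genes, at rank 4773 of 10329 at 60 min and 4658 at 0 min. By TPM it stood higher, at rank 3434 of 18527 at 60 min and 2832 at 0 min, so its level depends on the measure. Egr2 (NM_010118, CDS 1413 nt) lies on chromosome 10, 67534469 to 67542188.

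Nr4a2, known as Nurr1 and required for midbrain dopamine neurons, was the highest of the nuclear receptors before HHT. It had 1836, 433, 260, 257 and 220 counts and a signal of 1534, 375, 262, 244 and 189. Nr4a3, known as Nor1, had 1363, 405, 192, 186 and 167 counts and a signal of 1062, 327, 181, 164 and 134. Nr4a1, known as Nur77, had 960, 263, 230, 236 and 200 counts and a signal of 796, 226, 230, 222 and 170. Nr4a1 was the lowest of the 3 at 0 min, yet its signal lay above that of Nr4a3 at 10, 30 and 60 min.

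Npas4, which shapes inhibitory synapses after activity, had the lowest level of the 8 genes at all times except 5 min, when Egr2 was lower. Its counts were 282, 114, 51, 52 and 35, and its signal was 155.9, 65.3, 34.0, 32.6 and 19.9. That put it at rank 7018 of 10329 genes at 60 min and 6132 at 0 min, below the median signal of all genes, which was 40.6 and 221 at these times. Nr4a1 (NM_010444, CDS 1806 nt) lies on chromosome 15, 101253902 to 101274795, and Nr4a2 (NM_013613, CDS 1797 nt) on chromosome 2, 57106830 to 57124003. Nr4a3 (NM_015743, CDS 1884 nt) lies on chromosome 4, 48045078 to 48086447, and Npas4 (NM_153553, CDS 2409 nt) on chromosome 19, 4984353 to 5003439.

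The order of levels at 0 min was Egr1, Egr3, Nr4a2, Egr4, Nr4a3, Nr4a1, Egr2 and Npas4, and no pair of neighbours in it had overlapping counting intervals. At 60 min Egr1 (995 to 1125) and Egr3 (548 to 681) still led, and Egr4 (238 to 311) came next. Behind them the intervals of Nr4a2 (165 to 216) and Nr4a1 (148 to 196) overlapped, as did those of Nr4a1 and Nr4a3 (114.1 to 155.5), so these neighbours were not separated. Egr2 (32.9 to 64.5) and Npas4 (13.8 to 27.6) came last.

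**Figure D1:**
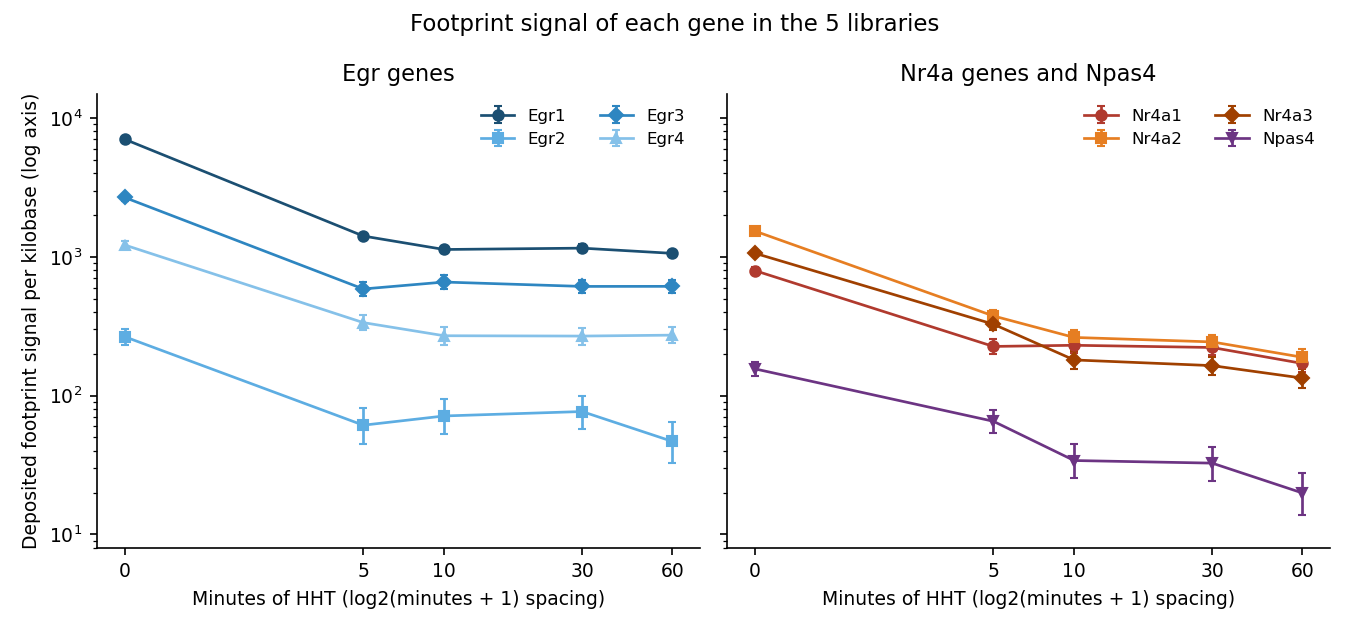
Deposited footprint signal per kilobase (log axis) of the 4 Egr genes (left) and of the 3 Nr4a genes with Npas4 (right) in the single library of each time; bars are 95% counting intervals. Egr1 lies above all others at each time (1058 at 60 min, 7028 at 0 min), and the lines of Nr4a1 and Nr4a3 cross between 5 and 10 min.

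The promoters printed here show what these genes share outside the coding sequence, for the 3 nuclear receptors and for Npas4. Each is the window of 300 bases that the RefSeq promoter table on GRCm38.p6 gives for the gene, on the gene's own strand. The Nr4a2 and Nr4a3 windows each span the outer end of their gene as annotated. Those of Nr4a1 and Npas4 lie inside the gene spans given above. The outermost annotated starts of Nr4a1 and Npas4 are thus not what is shown. Capitals mark the CRE half-site TGACG, the core of the site that CREB binds, read on both strands, so that CGTCA is marked too. The windows are chr15:101266596-101266895 (plus strand), chr2:57123954-57124253 (minus), chr4:48045055-48045354 (plus) and chr19:4989922-4990221 (minus), in the order printed.
Nr4a1: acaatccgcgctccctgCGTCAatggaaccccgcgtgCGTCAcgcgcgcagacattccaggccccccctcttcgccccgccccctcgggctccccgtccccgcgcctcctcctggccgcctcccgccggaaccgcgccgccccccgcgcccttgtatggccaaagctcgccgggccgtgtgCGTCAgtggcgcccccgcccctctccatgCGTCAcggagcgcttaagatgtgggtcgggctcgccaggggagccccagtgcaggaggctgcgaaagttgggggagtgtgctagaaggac
Nr4a2: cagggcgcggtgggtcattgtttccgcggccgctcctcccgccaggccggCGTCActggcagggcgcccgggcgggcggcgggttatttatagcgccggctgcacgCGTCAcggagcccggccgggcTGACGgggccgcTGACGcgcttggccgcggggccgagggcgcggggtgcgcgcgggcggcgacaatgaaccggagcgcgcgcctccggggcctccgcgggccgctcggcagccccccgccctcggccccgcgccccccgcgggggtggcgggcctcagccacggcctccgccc
Nr4a3: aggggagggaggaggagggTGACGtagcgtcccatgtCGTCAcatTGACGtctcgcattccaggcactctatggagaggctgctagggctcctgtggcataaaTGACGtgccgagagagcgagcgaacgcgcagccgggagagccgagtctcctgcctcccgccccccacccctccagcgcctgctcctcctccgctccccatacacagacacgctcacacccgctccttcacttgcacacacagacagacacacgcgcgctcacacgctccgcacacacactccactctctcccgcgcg
Npas4: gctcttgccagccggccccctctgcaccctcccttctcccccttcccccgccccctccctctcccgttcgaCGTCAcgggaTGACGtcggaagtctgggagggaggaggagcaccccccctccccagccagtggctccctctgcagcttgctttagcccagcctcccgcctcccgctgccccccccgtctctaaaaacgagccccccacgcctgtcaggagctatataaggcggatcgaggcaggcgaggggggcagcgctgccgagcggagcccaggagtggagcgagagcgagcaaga

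Nr4a1, Nr4a2 and Nr4a3 hold 4 half-sites each, and Npas4 holds 2. At least 4 are found in 76 of 32851 such windows of the mouse genome (0.231%), and at least 2 in 5.01%. Promoter windows were matched for 6 of the 8 genes, all but Egr1 and Egr3. All 6 hold at least 1 half-site, as do 6228 of 27025 genes (23.0%); the Egr4 window holds 2, and so do 3 of the 5 Egr2 windows, which are nearly the same stretch. No window of these 6 genes holds the full CRE TGACGTCA (2.03% of genes) or the Nr4a site AAAGGTCA (1.70% of genes). The CArG box of serum response factor is in 1 gene, Egr2, in 4 overlapping or neighbouring windows (1.81% of genes). The Egr site, GCGGGGGCG or GCGTGGGCG, is in Nr4a1 (3.93% of genes). The 6 genes' windows are 56.0% to 81.7% G or C, and such composition itself bears on how often these letters occur.

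Footprints of all 8 genes fell on HHT, most of it by 5 min. Over the 8 genes the median ratio was 0.260, 0.220, 0.215 and 0.163 at 5, 10, 30 and 60 min. Over all 10329 genes the medians of the authors' deposited table were 0.333, 0.268, 0.223 and 0.181. Over the 4825 genes whose CDS is between that of Egr3 and that of Npas4 they were 0.310, 0.242, 0.218 and 0.176. The members' median was thus below both at 5 min and near both at 30 min, and 5 of 8 genes lay below the median of all genes at 60 min.

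With the deposited library factors, all 8 genes fell along log2(minutes + 1), by the quasi-likelihood test of edgeR with Benjamini-Hochberg adjustment over 9444 genes. Of those genes 94.2% were called lower by the same test, so the count of 8 of 8 says nothing particular about these genes. Nr4a3 had the steepest slope, a change of -0.51 in log2 signal for each unit of log2(minutes + 1), with an SE of 0.074 (adjusted p = 0.000175), and Nr4a1 the shallowest, -0.35 (SE 0.075, adjusted p = 0.000815). Those of Nr4a2, Npas4 and Egr1 were -0.50, -0.49 and -0.46, and those of Egr2, Egr4 and Egr3 were -0.38, -0.37 and -0.35. The median slope of all genes was -0.41. On minutes in place of log2 time 0 of 8 members were called lower, beside 0.254% of all genes (24 of 9444), with adjusted p of 0.117 to 0.172 for the members.

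Relative to the typical mRNA, as TMM scaling sets it, 0 of 8 genes were called in either direction. The background of that fit was 1 gene called lower of 9444 (0.0106%) and 0 higher, with 518 lower and 637 higher before adjustment at the same threshold of 0.05. DESeq2 called 37 lower and 36 higher, none of them a member. The members divided evenly in sign. Slopes were 0.06 for Nr4a1 and Egr3, 0.04 for Egr4 and 0.03 for Egr2, and -0.05 for Egr1, -0.08 for Npas4, -0.09 for Nr4a2 and -0.10 for Nr4a3, with adjusted p of 0.559 to 0.896.

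One gene's ratio over another's had an interval without 1 for 15 of 28 pairs at 5 min over 0 min. At 60 min over 5 min this was so for 18 of 28. These intervals cover counting error only and were not adjusted for the number of pairs. The share among pairs of other genes was not computed, so the counts say nothing particular about these genes. Nr4a2, Nr4a3 and Npas4 went on losing footprints from 5 to 60 min, while Nr4a1 and the Egr genes had most of their 5 min signal left at 60 min. The signal at 60 min over that at 5 min was 0.304 for Npas4 (0.202 to 0.448), 0.409 for Nr4a3 (0.339 to 0.491) and 0.504 for Nr4a2 (0.426 to 0.594). It was 0.750 for Egr1 (0.691 to 0.814), 0.754 for Nr4a1 (0.624 to 0.910), 0.764 for Egr2 (0.484 to 1.20), 0.812 for Egr4 (0.677 to 0.974) and 1.04 for Egr3 (0.893 to 1.22). The intervals of Egr2 and Egr3 include 1. The median was 0.549 over the 8727 genes with at least 20 counts summed over the 5 and 60 min libraries.

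The loss after 5 min also varies with CDS length, so each value was set beside the median of mRNAs with a CDS within 10% of its own. Those mRNAs too had at least 20 counts summed over the 5 and 60 min libraries. Nr4a2, at 0.504, lay close to its class (0.551), whose median its interval holds. Npas4 and Nr4a3 lay below theirs, at 0.304 against 0.429 and 0.409 against 0.532, although the interval of Npas4 reaches past that median. Egr3 (1.04 against 0.731), Nr4a1 (0.754 against 0.550), Egr1 (0.750 against 0.601) and Egr4 (0.812 against 0.661) lay above theirs with intervals that leave the median out. Egr2 (0.764 against 0.671) lay above its median too, but its interval holds it. Some pairs differed by 5 min and were not told apart after it. Egr1 over Egr4 was 0.728 at 5 min over 0 min (0.628 to 0.845) and 0.924 at 60 min over 5 min (0.757 to 1.13), and Egr1 over Nr4a1 was 0.707 (0.609 to 0.823) and 0.995 (0.810 to 1.22).

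Fitted on the 5, 10, 30 and 60 min libraries alone, 3 of 8 genes were called lower with the deposited library factors, beside 47.7% of the 8631 genes tested. They were Npas4 (slope -0.45, SE 0.0999, adjusted p = 0.000205), Nr4a3 (-0.35, SE 0.087, adjusted p = 0.000792) and Nr4a2 (-0.26, SE 0.087, adjusted p = 0.0112) by edgeR's quasi-likelihood test. Nr4a1, Egr1, Egr4, Egr2 and Egr3 had slopes of -0.11, -0.10, -0.08, -0.08 and 0.0029, with adjusted p of 0.325 to 0.981. In the same libraries under TMM scaling Egr3 was called higher relative to the typical mRNA (0.26, SE 0.080, adjusted p = 0.0435), beside 5.1% of genes called higher. The other members had no such call. That a gene was called and another was not does not show that they differ, and the comparison of gene pairs bears on this directly.

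**Figure D2:**
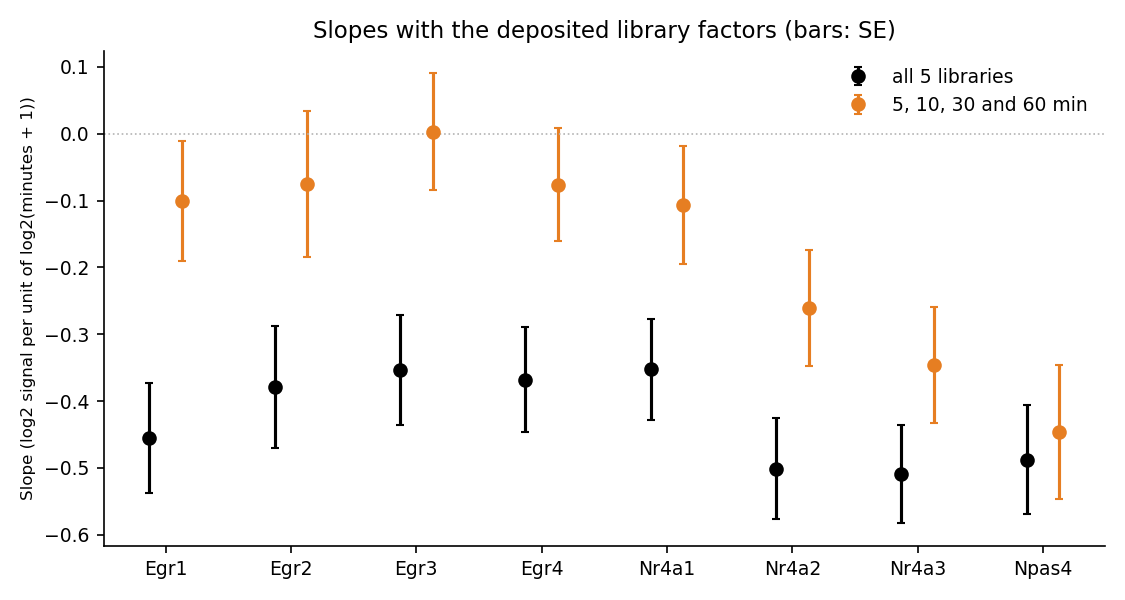
Slope of log2 signal on log2(minutes + 1) with the deposited library factors for each gene, fitted on all 5 libraries (black) and without the 0 min library (orange); bars are SE. Without 0 min, Nr4a2, Nr4a3 and Npas4 stay below -0.2, while the Egr genes and Nr4a1 lie between -0.11 and 0.0029.

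A pair of genes was compared by the ratio of their 2 ratios, in which any single factor per library cancels. The TPM table does not follow the counts by such a factor for Egr2, so pairs with Egr2 hold for the count table alone. Within the nuclear receptors, Nr4a1 kept more of its footprints than either relative. Its ratio of 60 min to 0 min, 0.214, was 1.74 times that of Nr4a2 (0.123; interval 1.41 to 2.15) and 1.70 times that of Nr4a3 (0.126; 1.35 to 2.14). Nr4a2 and Nr4a3 were not told apart (0.978, 0.786 to 1.22). At 5 min the value for Nr4a1 was 1.16 against Nr4a2 (0.974 to 1.38) and 0.922 against Nr4a3 (0.770 to 1.10), both including 1. At 10 min it was 1.69 and 1.70, and at 30 min 1.76 and 1.80, with all 4 intervals above 1. The CDS lengths of the 3 genes, 1806, 1797 and 1884 nt, lie within 10% of each other.

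Within the Egr family, Egr1 kept less than Egr3 and Egr4. Its ratio of 60 min to 0 min, 0.151, was 0.658 times that of Egr3 (0.229; interval 0.574 to 0.756) and 0.672 times that of Egr4 (0.224; 0.572 to 0.792). Egr3 and Egr4 were not told apart (1.02, 0.843 to 1.24). The 3 pairs with Egr2, whose own ratio was 0.176 (0.121 to 0.250), all had intervals that include 1 at 60 min. At 10 and 30 min Egr1 lay below Egr2 as well (0.598 and 0.568, intervals 0.432 to 0.842 and 0.418 to 0.785). In all, 4 of 9 pairs within a family and 14 of all 28 pairs had an interval without 1 at 60 min. There was no adjustment for the number of pairs, and the share among pairs of other genes was not computed. Egr proteins share their zinc fingers and Nr4a proteins their DNA-binding domain, and the handling of reads common to relatives was not given in the sources used here.

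**Figure D3:**
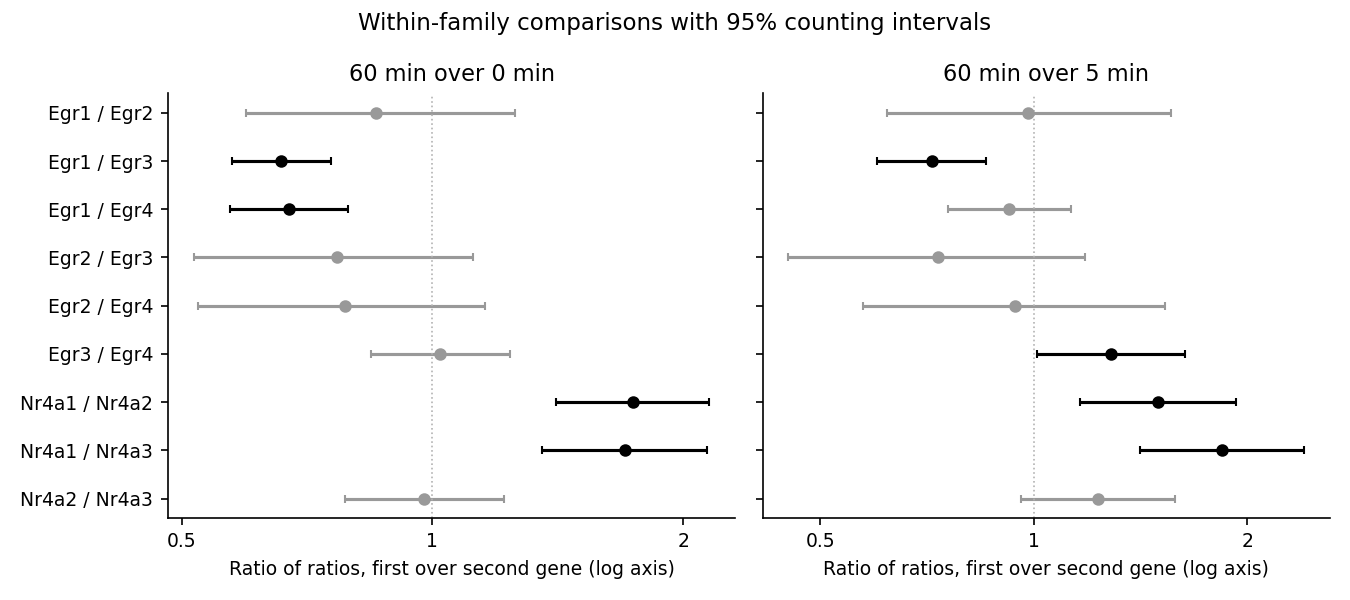
Ratio of ratios for the 9 pairs within a family, first gene over second, for 60 min over 0 min (left) and 60 min over 5 min (right), on log axes; bars are 95% counting intervals, black where they leave out 1. Nr4a1 lies above Nr4a2 and Nr4a3 in both panels, and Egr1 lies below Egr3.

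Set beside mRNAs with a CDS within 10% of their own length and at least 50 counts at 0 min, the genes fell into several patterns. Egr1 had a ratio of 0.201 at 5 min, below the lower quartile of 1182 such mRNAs (0.235), and 0.161 at 10 min (lower quartile 0.172). By 60 min its 0.151 lay between their lower quartile (0.130) and their median (0.171). Nr4a2 lay below the lower quartile at every time, with 0.244 against 0.268 at 5 min and 0.123 against 0.133 at 60 min. Its counting interval held that quartile at every time, as at 5 min (0.220 to 0.271).

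Nr4a3 began inside the middle range, at 0.308 (quartiles 0.277 and 0.403), and lay below the lower quartile from 10 min on, with 0.170 against 0.186 and, at 60 min, 0.126 against 0.134. Npas4 matched mRNAs of its length at 5 min, with 0.419 against a median of 0.422, and was below their lower quartile at 60 min, with 0.128 against 0.138. Its 35 counts at 60 min leave an interval of 0.087 to 0.182, which holds both that quartile and the median, 0.175.

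Nr4a1, Egr3 and Egr4 stayed above the median of their length class at 30 and 60 min, though not always beyond counting error. Nr4a1 had 0.279 and 0.214 at 30 and 60 min, against medians of 0.214 and 0.171. Egr3 had 0.229 at both times, against 0.213 and 0.174, and Egr4 had 0.221 and 0.224, against 0.214 and 0.175. Egr2 was above the upper quartile at 30 min, with 0.289 against 0.280, and within the middle range at the other times. At 60 min the intervals of Nr4a1, Egr3 and Egr4 lay above their class medians, as did that of Nr4a1 at 30 min. At 30 min those of Egr3 (0.201 to 0.259) and Egr4 (0.189 to 0.257) held the class median, and that of Egr2 (0.211 to 0.390) held both its median, 0.217, and its upper quartile. The intervals of Nr4a2 at every time, and those of Nr4a3 from 10 min on, held the lower quartile of their class but not its median.

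**Figure D4:**
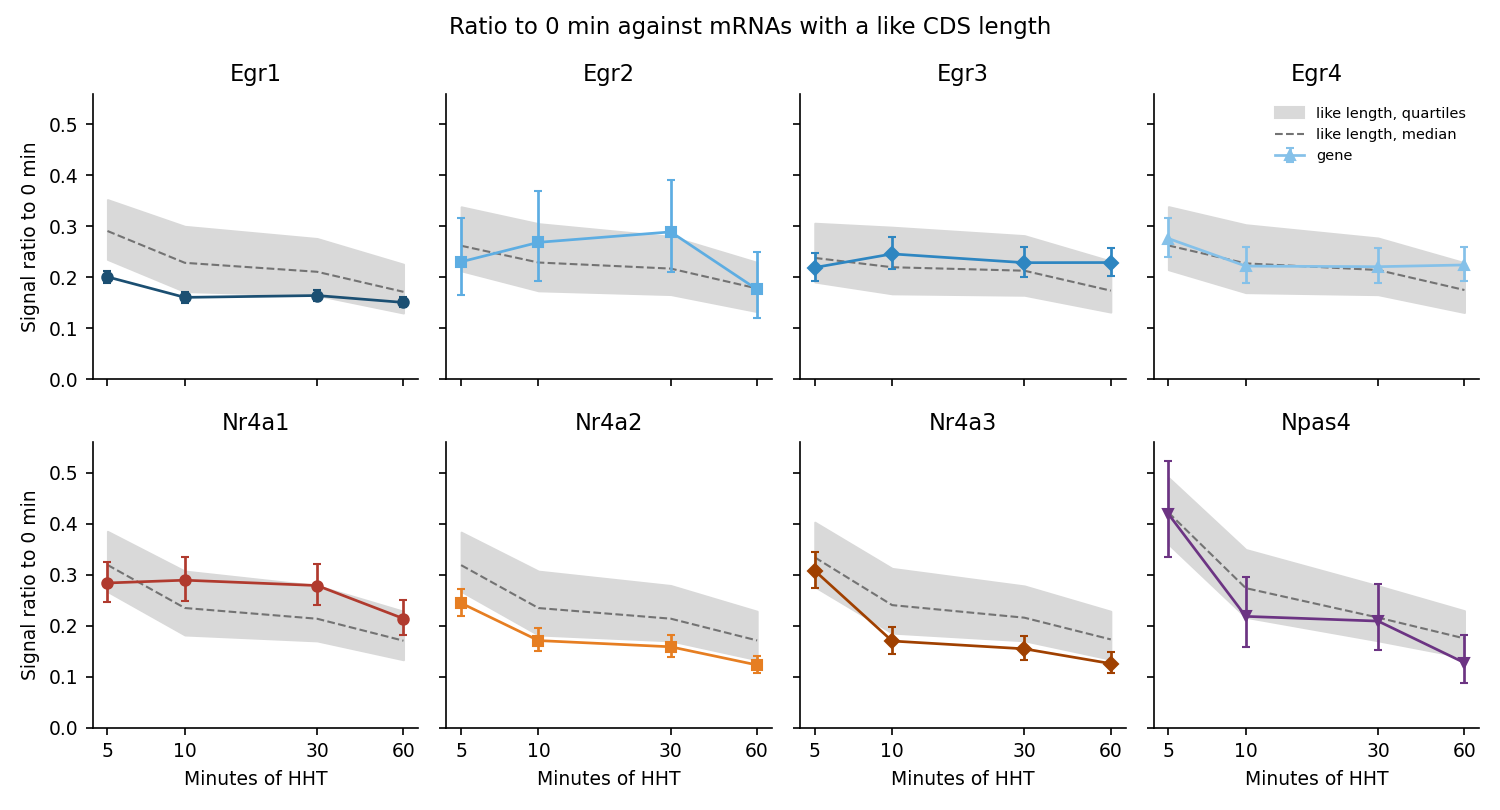
Signal ratio to 0 min of each gene (coloured points, bars are 95% counting intervals) against minutes of HHT, with the median (dashed) and quartiles (grey) of mRNAs whose CDS is within 10% of its length. Egr1 and Nr4a2 start below the grey band at 5 min (0.201 and 0.244), and Nr4a1 lies at its upper edge at 30 min (0.279). The bar of Nr4a2 at 5 min (0.220 to 0.271) reaches into the band.

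Across the 8 genes, the ratio at 5 min went with CDS length (Spearman's rho 0.810) and at 60 min against it (-0.667). At 10 and 30 min rho was -0.333 and -0.524. With the signal at 0 min in place of CDS length, rho was -0.738, -0.452, -0.333 and 0.143 at 5, 10, 30 and 60 min. These describe 8 points that share libraries. Npas4, with the longest CDS of the 8, had the highest ratio at 5 min and one of the lowest at 60 min. Egr3, with the shortest, had 0.219 and 0.229.

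The TPM table, in which each library is scaled to a common total, gives each gene's footprints per length as a share of their total over all genes. Egr1 had a TPM of 721, 484, 408, 489 and 533 in time order, and Egr3 had 282, 206, 244, 266 and 317. Nr4a1 had 81, 77, 83, 94 and 85, so its share at 60 min was above that at 0 min, as were those of Egr3 and Egr4 (138 at 60 min against 126 at 0 min). No interval was computed for TPM, so these small rises were not set against counting error. The shares of Nr4a2 (97 against 160), Nr4a3 (62 against 101) and Npas4 (10 against 16) were lower at 60 min. The tables disagreed on Egr2, whose TPM was 62, 22, 57, 64 and 47. Its TPM per unit of signal at 0 min was 0.233, against 0.095 to 0.105 for the other members, and it was also above the others at 10 min (0.799 against 0.349 to 0.371), 30 min (0.834 against 0.389 to 0.435) and 60 min (1.01 against 0.464 to 0.518). Only at 5 min did it lie among them, at 0.360 against 0.324 to 0.368. Why the tables differ was not tested.

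Summed over the 8 genes, the libraries held 14226, 3217, 2211, 2307 and 2249 counts in time order. The summed signal had ratios of 0.230, 0.192, 0.188 and 0.170 at 5, 10, 30 and 60 min. Egr1 weighs most in these sums.

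The rule for likeness took the median profile of the 8 genes over 4 log2 ratios and ranked 7024 other genes with at least 100 counts at 0 min by their distance from it. The nearest were Nova1, a neuronal splicing regulator (distance 0.055), Dnajb11, an endoplasmic reticulum co-chaperone (0.067), Anxa6, a calcium-dependent membrane-binding protein (0.081), Map2k4, a stress kinase (0.103), and Lsm14b, an RNA-binding protein (0.106). Nova1 had ratios of 0.263, 0.213, 0.215 and 0.160. The 8 members themselves lay farther off, at 0.465 (Egr4) to 0.773 (Npas4), with 633 to 2079 genes closer, and the median distance of all genes compared was 1.08. The median profile is therefore that of no single member.

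Genes that work with or beside these factors also lost footprints. Within each list below, the lowest and highest ratios named are among genes with at least 50 counts at 0 min. Among 12 listed partners and co-regulators, 11 were tested and 11 fell on the slope with the deposited library factors, beside the 94.2% of all genes. Their median ratio at 60 min was 0.177, against 0.181 for all genes. Nab2 and Nab1, co-repressors that bind Egr proteins, had the lowest ratios there, 0.131 (0.104 to 0.164) and 0.153 (0.073 to 0.289). Nab1 had 74 counts at 0 min and 11 at 60 min, and its interval holds every other ratio named here. Rxrb, which encodes a retinoid X receptor, the partner class of Nr4a1 and Nr4a2, and Ncoa3, a nuclear receptor coactivator, had the highest, 0.256 and 0.215.

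Of the upstream transcription factors, 13 of 14 tested fell, and the median ratio at 60 min was 0.197. Creb1, which encodes the CRE-binding factor itself, was the 1 with no call (slope -0.18, SE 0.096, adjusted p = 0.0856, edgeR quasi-likelihood test); it had 83 counts at 60 min against 185 at 0 min, a ratio of 0.461 (0.351 to 0.6003). Elk1, a partner of serum response factor, had 0.342. Mkl2 and Mkl1, coactivators of serum response factor, were lowest at 0.134 and 0.152 among those with at least 50 counts at 0 min. Elk3, with 38 counts at 0 min and 1 at 60 min, had 0.027. Among kinases and calcineurin subunits of the activity pathway, 19 of 19 fell with a median of 0.165. Braf, a kinase at the head of the ERK cascade, and Mapk3, which encodes ERK1, were highest at 0.264 each, and Map2k1 and Map2k2, the kinases above ERK, were lowest at 0.109 and 0.116.

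Other immediate early transcription regulators lay lower than the 8 genes. Their median ratio was 0.222, 0.146, 0.094 and 0.092 at 5, 10, 30 and 60 min over 19 measured genes of 23 listed, 15 of which were below the median of all genes at 60 min. Of 19 tested, 18 fell. Among those with at least 50 counts at 0 min, Csrnp1 and Fosb had the lowest ratios at 60 min, 0.054 and 0.056. Csrnp1 is a nuclear protein induced by AXIN1, and Fosb is an AP-1 subunit. Ier2, with 42 counts at 0 min and 2 at 60 min, had 0.049. Fos, the classic activity marker, which was named after its values were seen, had 196 counts at 60 min against 3522 at 0 min, a ratio of 0.057. Jund, the AP-1 subunit that is expressed without stimulation, was the 1 with no call (slope -0.13, SE 0.084, adjusted p = 0.134, edgeR quasi-likelihood test), with the highest ratio, 0.544. Klf6, a zinc finger factor, came next at 0.287 among those with at least 50 counts at 0 min. Fosl1, with 45 counts at 0 min, had 0.342. The median CDS of the 8 genes was 1700 nt and that of this list 1035 nt.

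Activity-induced effectors had a median ratio of 0.140 at 60 min, and 22 of 22 tested fell. Dusp5, a phosphatase of ERK, and Arc, the synaptic plasticity protein, were highest at 0.360 and 0.347. Nedd9, a scaffold of adhesion signalling, and Pim1, a kinase, were lowest at 0.040 and 0.063. Constitutive neuronal transcription factors had a median of 0.215, and 23 of 24 tested fell. Lhx6, an interneuron factor, was the 1 with no call (slope -0.08, SE 0.095, adjusted p = 0.429, edgeR quasi-likelihood test), at a ratio of 0.642. Pou3f3, a POU homeodomain factor, had 0.404, and Bcl11a, a zinc finger factor, and Lhx2, a LIM homeodomain factor, were lowest at 0.144 and 0.155.

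Relatives of the members by DNA-binding domain, which are nuclear receptors, bHLH-PAS proteins and zinc finger factors of GC-rich sites, had a median of 0.159, and 27 of 28 tested fell. Nr2f6, an orphan receptor, was the 1 with no call (slope -0.16, SE 0.099, adjusted p = 0.128, edgeR quasi-likelihood test) at 0.506, and its relative Nr2f1 had 0.409. Ahr, the dioxin receptor, and Npas3, a bHLH-PAS relative of Npas4, were lowest at 0.050 and 0.071. None of the genes of these 7 lists was called relative to the typical mRNA.

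Markers of cell types moved apart over the same libraries. Median ratios at 60 min were 0.234 for neurons, 0.221 for endothelial and mural cells, 0.109 for astrocytes, 0.071 for oligodendrocytes and 0.046 for microglia. The summed signal of the 11 microglial markers was 392 at 60 min and 8507 at 0 min, that of the 9 astrocyte markers 9457 and 94938, and that of the 9 oligodendrocyte markers 4705 and 63951. No marker was at 0 counts at 60 min. Glial cells are known to express several immediate early genes too, and the part of glial footprints in the values of the 8 genes was not tested.

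**Figure D5:**
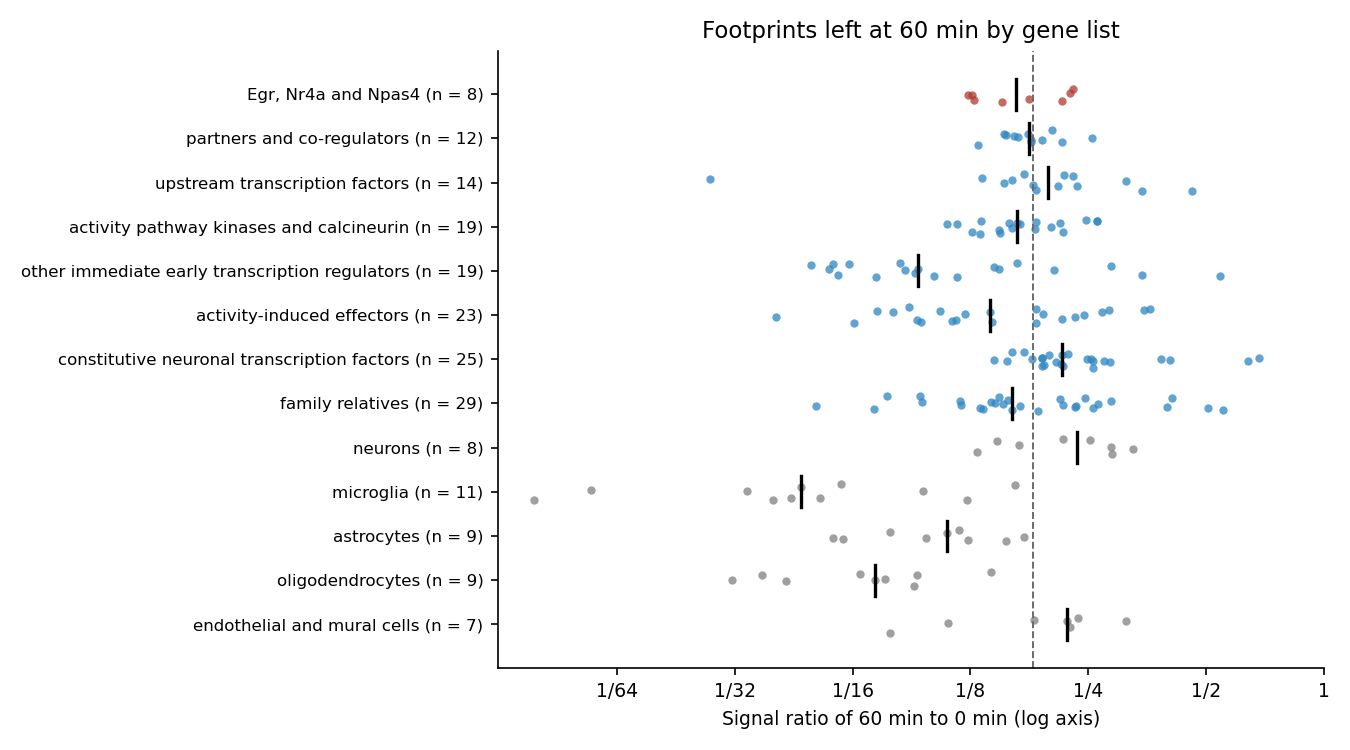
Signal ratio of 60 min to 0 min (log axis) of every measured gene in each list, with the list's median (black bar) and the median of all genes (dashed, 0.181); red is the 8 members, blue the pathway lists, grey the cell type markers, and n is the number measured. The 8 members lie between 0.123 and 0.229, while the other immediate early regulators centre on 0.092.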

How the data were processed

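Footprints of 5 wild-type slice libraries, 1 per time of homoharringtonine, were analysed as the authors deposited them. The build was mm10, and the tools named in the submitters' processing notes are TopHat2 2.0.9, Bowtie2 2.1.0, SAMtools 0.0.19, Trimmomatic 0.32 and cutadapt 1.7.1, whose roles were not given in the sources used here. All deposited expected counts (RSEM and a CDS without its ends, per the names of the deposited data) were whole numbers, so rounding changed none. The deposited signal is count per kilobase of CDS less 600 nt over 1 factor per library, each factor taken here as a median over all genes. The deposited ratio is that signal over 0 min, and ratios recomputed from counts and factors matched it for the 8 members. The deposited TPM, whole numbers, was handled as a score. The authors' scores of fractional loss were not used.

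Slopes on log2(minutes + 1) were fitted for all genes with a mean of at least 10 counts by edgeR 4.0.16 (R 4.3.3), with the deposited factors or TMM, and p-values were Benjamini-Hochberg adjusted over all genes tested (threshold 0.05). The SE of an edgeR slope is its absolute value over the square root of the test's F statistic, not a separate estimate. DESeq2 1.42.0 was an alternative, and its own SE for the Nr4a3 slope with the deposited factors was larger (0.089 against 0.074). With 1 library per time, residual scatter holds library differences and departures from a straight line together. Intervals of ratios are exact conditional binomial intervals, those of levels exact Poisson intervals, and those of ratios of ratios exact conditional intervals (scipy 1.17.1); reads carried no stated molecular identifiers.

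The 8 members and all gene lists were chosen with earlier results of these data known. From each pathway list, the 2 highest and 2 lowest ratios at 60 min among genes with at least 50 counts at 0 min were named, with any gene called where 5 or fewer were; the genes with no call are among them. Positions and promoters are from RefSeq on GRCm38.p6, in which all 8 transcripts were found.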

Additional observations from a re-analysis of the deposited data

How the results depend on the processing

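No paired analysis was possible because each time point has 1 library. No time point has a replicate, so intervals and slopes measure counting error and scatter along the time course only, and Egr2 and Npas4, with 37 and 35 counts at 60 min, are the least precise.

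The direction and call of all 8 genes on the slope with the deposited library factors held with DESeq2, with no filter on low counts, and without the 5, 10, 30 or 60 min library. They held too with scaling to mitochondrially encoded genes. Those factors lay near the deposited ones (0.994 against 0.965 at 5 min, 0.826 against 0.828 at 10 min), so that scaling nearly repeats the main fit. The origin of the deposited factors was not given in the sources used here. On minutes in place of log2 time the count of genes called lower was 24 of 9444, against 8900, and no member was among them. Leaving out 1 library gave 4114 to 9173 genes lower and 0 to 46 higher; the lowest count and the 46 came without 0 min, where 3 of 8 members were called. The Egr3 slope ranged between -0.45 and 0.0029 over the 5 omissions, the second without 0 min.

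For the TMM-scaled slope, 1 gene was lower and 0 higher; DESeq2 gave 37 and 36, upper-quartile scaling 19 and 5, and removal of the CDS length trend 413 and 417, with no member called in any of these. Leaving out 1 library gave 0 to 874 lower and 0 to 440 higher. Signs of small slopes changed: Egr1 was 0.00094 on minutes and -0.11 to 0.16 over the omissions, Egr2 -0.0039 to 0.18 and Egr4 -0.017 to 0.18.

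The median log2 ratio of the 8 genes at 60 min, -2.62, was -0.42 in the TPM table and -0.16 under TMM, which both remove the common loss. Egr3, Egr4 and Nr4a1 then changed sign, to 0.17, 0.13 and 0.070 in TPM and 0.33, 0.30 and 0.23 under TMM. No interval was computed for these values. A pseudocount of 2 left each fold within its counting interval. The causes were not tested beyond what each scaling does by construction.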
